A study of Mus musculus with 2 samples.

Results

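The genes of the cytosolic ribosomal proteins were described in leukocytes from the inflamed mouse central nervous system (CNS). A gene was a member when its symbol began with Rpl or Rps followed by a number, leaving out the Rps6k kinases and symbols holding "-ps", and Rplp0, Rplp1, Rplp2 and Rpsa were added. This gave 86 of 32285 genes, of which 52 carry large subunit names and 34 small subunit names. The choice used gene symbols and no measured value. Mice of the C57BL/6 strain, either WT or Stat4fl/flCD11cCre, were immunized with MOG peptide in CFA with PTX to induce experimental autoimmune encephalomyelitis (EAE), a model of multiple sclerosis. CNS mononuclear cells were taken at day 15, pooled within each genotype and sorted as MHCII+CD11c+. Each pool gave 1 droplet-based 3′ single-cell library, so 1 library stands for each genotype. In Stat4fl/flCD11cCre mice, Cre under the CD11c promoter is directed at CD11c-expressing cells, and the labels name no Cre-only control.

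Each ribosome has a small subunit, which reads the mRNA, and a large subunit, which joins amino acids, and each holds 1 copy of most ribosomal proteins. The mRNAs of these proteins are among the most abundant in a dividing cell, and many begin with a run of C and T (a 5′ TOP motif) through which mTOR and LARP1 control their translation. Mature neutrophils are known for low RNA content and little ribosome production, and activated lymphocytes for the reverse.

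Kept barcodes numbered 13298 in WT and 12305 in Stat4fl/flCD11cCre, with medians of 6440.5 and 6878 unique molecular identifiers (UMIs, counted molecules) of genes. Barcodes were assigned to 11 cell types by marker genes, and those in more than 1 gate were not used. These were 3886 barcodes of the WT library and 3018 of the other, with median depths of 12811.5 and 13909.5 UMIs. The B cell gate held 75 and 44 barcodes and was not compared, which leaves 10 gates. 43 barcode sequences occurred in both libraries. Stat4, the targeted gene, had 92.5 CPM (gene UMIs scaled to a common total per gate) in WT and 95.4 CPM in Stat4fl/flCD11cCre in the conventional dendritic cell 2 (cDC2) gate. In the natural killer (NK) cell gate it had 421 and 384 CPM. Whether the counted 3′ end lies outside the deleted exons is not given in the sources used here, so these values do not check the labels. The sort asked for CD11c, whose gene Itgax was at 75.8 and 86.2 CPM in the cDC2 gate but 26.8 and 11.2 CPM in the microglia gate. H2-Aa, an MHC class II gene, was at 6270 and 7386 CPM in cDC2 and at 1535 and 452 CPM in microglia. Every value below describes these 2 libraries. There is no replicate, so no test between genotypes was possible, and 95% intervals cover counting error only.

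Promoters of 66 of the 86 genes, 78 in all, were found in RefSeq (GRCm38.p6). Shown here are the 20 bases before and 10 bases from the start site of genes that the results turn on, 5′ to 3′ on the gene's strand, with the longest C/T run in capitals. Rps9 and Rps27 take a larger share of the module in neutrophils than in any other compared gate and Rpl12 a smaller one. Rpl31 stands high in plasmacytoid dendritic cells (pDC), Rpl35 was lower in Stat4fl/flCD11cCre in every gate, and Rpl22l1 and Rps27rt are a paralog and a retrocopy.
Rps9: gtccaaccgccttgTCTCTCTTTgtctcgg
Rps27: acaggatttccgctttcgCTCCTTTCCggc
Rps27rt: ggttaagaacttaTCCCTTgctttccggcg
Rpl12: gcgtgggcggagcaggatccgTCTTTTCgg
Rpl31: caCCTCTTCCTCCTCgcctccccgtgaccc
Rpl35: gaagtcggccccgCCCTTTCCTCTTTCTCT
Rpl22l1: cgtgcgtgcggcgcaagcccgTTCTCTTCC
These stretches lie at chr7:3704021-3704050 (Rps9, plus strand), chr3:90213639-90213668 (Rps27, minus), chr9:114982730-114982759 (Rps27rt, minus), chr2:32961692-32961721 (Rpl12, plus), chr1:39367831-39367860 (Rpl31, plus), chr2:39005122-39005151 (Rpl35, minus) and chr3:28805488-28805517 (Rpl22l1, plus). A C/T run of 7 or more bases was found in this window in 35 of 78 member promoters (44.9%), against 19.2% of all 32851 promoters and 15 of 75 (20%) of those of mitochondrial ribosomal protein genes. Runs of A and G of the same length, the complement, were in 7.69% of member promoters and 19.95% of all. CTTCCG, searched on both strands over 300 bases, was in 60.3% of member promoters, 53.3% of mitochondrial ribosomal protein promoters and 16.9% of all. Rps9 and Rpl12, which lie at opposite ends in neutrophils, both hold a C/T run of at least 7 bases.

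The share of UMIs that came from ribosomal protein genes differed between cell types far more than between genotypes. NK cells had 29.0% in WT, the highest of the compared gates there, and 26.0% in Stat4fl/flCD11cCre. The B cell gate, not compared, had 31.4% in WT (75 barcodes) and 25.7% in Stat4fl/flCD11cCre (44 barcodes). T cells had 27.9% in WT and 27.2% in Stat4fl/flCD11cCre, the highest of the latter library. Myeloid progenitors (Elane, Mpo, Prtn3 and Ctsg) had 26.5% and 25.3%. The dendritic cells lay close together: cDC2 at 25.7% and 25.3%, cDC1 at 24.3% and 24.2%, and pDC at 23.8% and 22.5%. Monocytes had 19.5% and 20.02%, and macrophages 17.4% and 17.6%. Microglia, the resident macrophages of the brain, had 10.9% and 8.15%. Neutrophils had 5.11% and 3.90%, the lowest share of the compared gates in both libraries. The level of the neutrophil share depends on the processing: it was 8.04% and 6.53% with barcodes in several gates resolved, and 8.07% and 6.65% without the 20 most abundant other genes in the total.

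**Figure D1:**
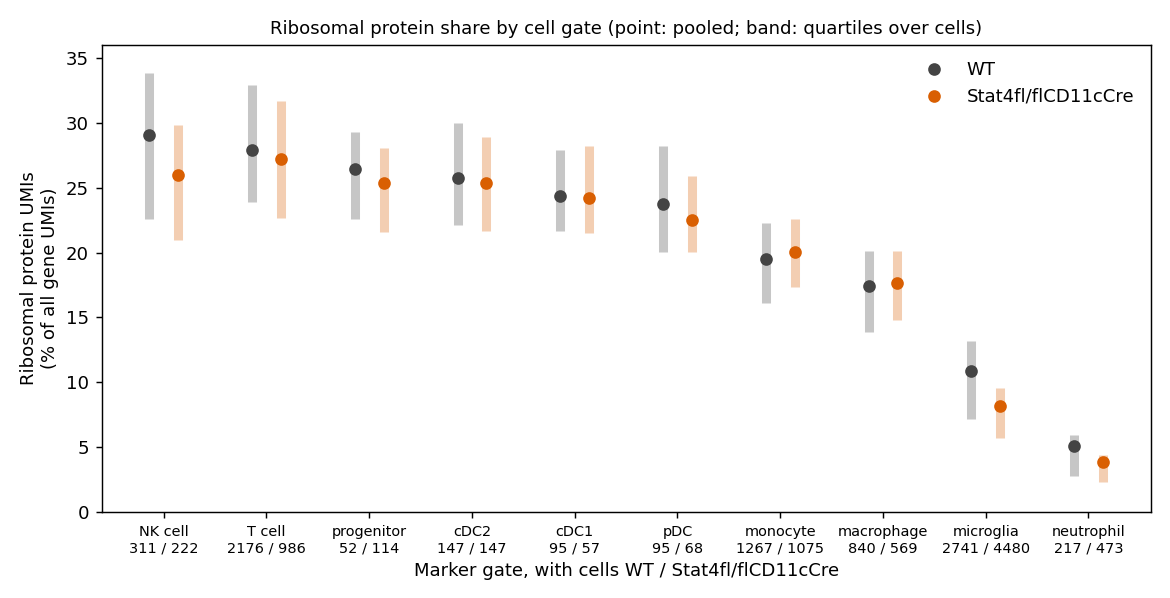
Percent of gene UMIs from the 86 ribosomal protein genes (y axis) in each marker gate (x axis, with cells per library); points are pooled shares and bands run from the lower to the upper quartile over cells. Lymphocytes, progenitors and dendritic cells lie above 22%, and microglia and neutrophils lie lowest in both libraries.

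By the median over cells, T cells (28.4% and 27.2%) lay above NK cells (28.0% and 24.7%) in both libraries. So the top of the order among the compared gates rests on the pooling. The low end did not: the medians were 9.75% and 7.40% in microglia, and 3.82% and 3.13% in neutrophils. Neighbouring gates overlap in their spread over cells. The quartiles of cDC2 in WT ran from 22.1% to 30.0%, and those of pDC from 20.03% to 28.2%. The small subunit's part of the module was even, between 44.3% and 49.1% of member UMIs in every gate and library. A share of a cell's UMIs cannot tell fewer ribosomal protein mRNAs from more of other mRNAs.

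Between genotypes, the pooled share was lower in Stat4fl/flCD11cCre in 8 of 10 gates. The log2 ratio over WT was -0.41 in microglia (95% interval -0.42 to -0.41) and -0.39 in neutrophils (-0.41 to -0.38). Over the alternatives the neutrophil ratio ran from -0.47 (2500 to 10000 UMIs) to -0.27 (1 more marker per gate), past that counting interval. The ratio was -0.16 in NK cells, -0.08 in pDC, -0.06 in progenitors, -0.03 in T cells and -0.02 in cDC2. The cDC1 ratio of -0.01 had an interval that spans 0 (-0.02 to 0.00). Monocytes and macrophages were higher, by 0.04 and 0.02. The quartiles over cells of the 2 libraries overlapped in every gate. Of the Stat4fl/flCD11cCre microglia, 76.3% lay below the WT median, against 59.2% of cDC2. Genes of other cells moved in these gates too. In the NK cell gate Cd74 had 207 and 735 CPM and summed pDC markers 23.7 and 148 CPM. Ttr, a choroid plexus gene, had 23.2 and 2964 CPM in the pDC gate, 2123 and 12.5 CPM in cDC2, and 826 and 226 CPM in T cells. In progenitors Cd74 had 770 and 127 CPM. Their part in these ratios was not tested.

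At the level of single genes, 82 of 84 tested members were lower in Stat4fl/flCD11cCre microglia. The share of all genes below 0 is not given here for any gate, so such counts have no background beside them. The members' median log2 ratio was -0.34, against 0.09 over all 12735 genes tested. 14 members were lower by 1.5-fold or more and 0 were higher by that much. Of all genes tested, 10.4% were lower and 6.96% higher by 1.5-fold. Those 14 were Rpl35, Rps28, Rpl38, Rpl39, Rpl37, Rps29, Rpl41, Rpl36, Rps27, Rpl37a, Rps26, Rps20, Rps21 and Rpsa. Rpl35, a large subunit protein near the exit tunnel, had 997 CPM in WT and 486 CPM in Stat4fl/flCD11cCre microglia. Rps28 had 2171 and 1181 CPM. The members above 0 were Rpl7l1, a Rpl7 homolog, at 65.0 and 76.1 CPM, and Rps19bp1, at 25.7 and 30.8 CPM. Rps19bp1 encodes a protein that binds RPS19 and is not a subunit; it is a member by its symbol only.

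In the neutrophil gate, 79 of 82 members were lower and the median was -0.46, against -0.08 over all genes. 24 members were lower by 1.5-fold or more and 0 higher, where 14.3% of all genes were lower and 4.22% higher. Rpl36al had 158 CPM in WT and 68.4 CPM in Stat4fl/flCD11cCre, a log2 ratio of -1.21. It lost the 1.5-fold call with 1 more marker per gate (-0.55) and with barcodes in several gates resolved (-0.33). Rps27a, which makes a ubiquitin fused to a small subunit protein, had 1638 and 1763 CPM. Rps9 had 2462 and 2471 CPM, and its interval spans 0.

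In the other gates few members passed 1.5-fold and 0 were higher by that much. NK cells and pDC had 2 each, Rpl35 and Rps29, where 3.19% and 6.71% of all genes were lower by that much. Over the alternatives, the log2 ratio of Rps29 in pDC ran from -0.61 to -0.56, the latter short of 1.5-fold. Macrophages and monocytes had 1 each, Rpl3l (background 3.79% and 4.94%), and cDC1 had 1, Rps19bp1, with 50 and 25 UMIs (5.06%). 0 passed in cDC2 (4.11%), progenitors (4.22%) or T cells (3.79%). For the 0 members higher by 1.5-fold, the background of higher genes was 4.29% in NK cells, 7.67% in pDC, 2.17% in macrophages, 2.69% in monocytes, 4.98% in cDC1, 6.07% in cDC2, 6.5% in progenitors and 2.45% in T cells. The monocyte median was 0.11 and the macrophage median 0.08, against 0.01 and -0.02 over all genes. In these gates 64 and 59 of 84 members were above 0, a count without a background share.

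**Figure D2:**
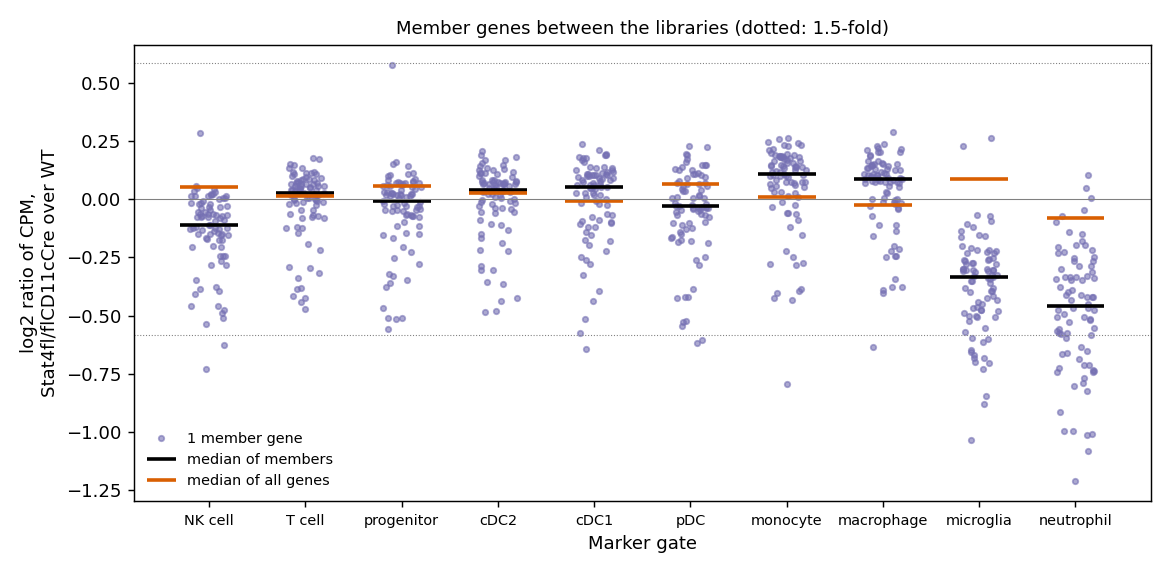
Log2 ratio of CPM, Stat4fl/flCD11cCre over WT (y axis), of each member with 50 or more UMIs over both libraries, by marker gate (x axis); black bars are medians of members and orange bars medians of all genes. Members of the microglia and neutrophil gates lie mostly below 0, and a tail of members lies low in every gate.

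Some members were lower in Stat4fl/flCD11cCre in every compared gate. Of 82 members measured in all 10 gates, 17 were below 0 in each, among them Rpl35, Rps29, Rpl38, Rps28, Rps27, Rpl37, Rpl36, Rps21, Rpl39, Rpl37a, Rpl41, Rpl34, Rpl35a and Rpl6. The share of all genes below 0 in every gate is not given here, so this count has no background beside it. Rps29, the member with the most UMIs over gated cells, ran from -0.74 to -0.40 over the gates. Its levels were 7167 CPM in WT and 5344 CPM in Stat4fl/flCD11cCre T cells, and 8491 and 6093 CPM in cDC2. Rpl35 ran from -1.04 to -0.38.

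Length was then set beside these ratios, with 2 measures tried in turn after the ratios had been seen. With the spliced length of the principal transcript, tried first, Pearson's r with the median ratio over gates was 0.45 (n = 76 genes). With the coding length (longest coding sequence annotated), tried second and chosen knowing which members were low, it was 0.66 (n = 82 genes). Both are descriptions across genes that share the same 2 libraries. 9 of the 10 members with a coding length under 300 bases are among the 17. The others of the 17 are longer, such as Rpl6 at 888 coding bases. The exception is Rps27rt, at a median of 0.08. The median ratio was -0.36 for those 10 and 0.03 for the other 72. By spliced length the 18 members under 500 bases had a median of -0.12 and the 58 others 0.04. Rpl35, at 369 coding and 946 spliced bases, was low and lies past both limits. Genes outside the module with a coding length under 300 bases had medians of -0.04 in microglia and -0.19 in neutrophils, against 0.11 and -0.07 for those of 600 bases or more. The gap was small in macrophages (-0.03 in both classes), T cells (0.00 and 0.01) and progenitors (0.04 and 0.06). It was of the other sign in monocytes (0.05 and 0.00). In the remaining gates the short class was also lower: NK cells (-0.02 and 0.06), cDC1 (-0.07 and -0.005), cDC2 (-0.01 and 0.03) and pDC (0.04 and 0.06).

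**Figure D3:**
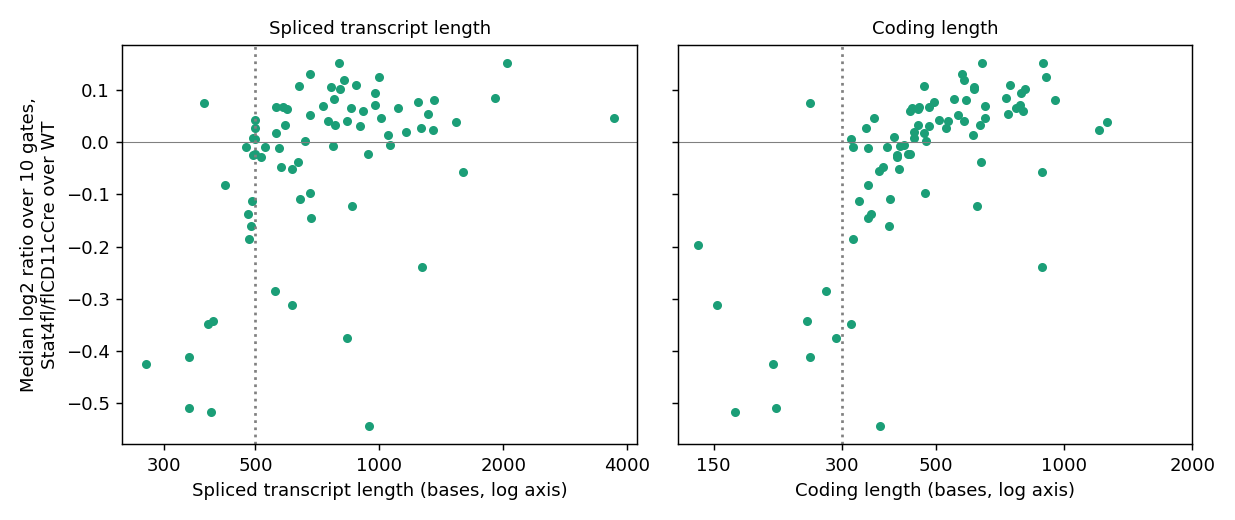
Median log2 ratio over 10 gates, Stat4fl/flCD11cCre over WT (y axis), against spliced transcript length (left) and coding length (right) in bases on log axes; each point is 1 member and dotted lines mark 500 and 300 bases. Members under 300 coding bases lie below 0 except Rps27rt, and Rpl35 lies low past both lines.

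Without the short members the count of lower gates was 5 of 10 by either measure. Limited to coding lengths of 300 bases or more, microglia stayed at -0.35 and neutrophils at -0.34, and NK cells at -0.10. Also counted as lower were progenitors at -0.009 and pDC at -0.011, where the pDC interval spans 0 (-0.0233 to 0.0015). The sign turned in cDC2 (0.03), T cells (0.02) and cDC1 (0.05), and monocytes and macrophages were at 0.11 and 0.08. With only the members under 500 spliced bases left out, the values were -0.38 in microglia, -0.35 in neutrophils and -0.11 in NK cells. In pDC and progenitors they were -0.023 and -0.019. They were 0.02 in cDC2, 0.01 in T cells and 0.04 in cDC1. The 68 members kept by that measure include those without a spliced length: Rpl41 (138 coding bases), Rps24, Rpl19, Rpl26, Rpl7 and Rpl22l1. A property of the library and an effect of the genotype cannot be told apart here.

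The make-up of the module, each member's part of the member UMIs, does not move when the whole module moves. Members with many UMIs included Rps29, which made 3.55% of the module in the WT library and 2.77% in the other, and Rps24, at 2.26% and 2.31%. Of 80 members with 50 or more UMIs in every gate and library, 36 varied under 1.5-fold across gates and 18 varied 2-fold or more, taking the library with the smaller range. 63 of 80 had the same top gate in both libraries. Deviations from a member's mean over gates correlated between libraries at r = 0.91 in microglia to r = 0.99 in progenitors (n = 80 genes, all from the same 2 libraries).

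Among those 80 members, Rps9, a small subunit protein involved in decoding accuracy, varied most. It made 4.81% of the module in WT and 6.34% in Stat4fl/flCD11cCre neutrophils, against 1.24% and 1.30% in T cells. In CPM it had 2462 and 2471 in neutrophils, below T cells (3458 and 3542) and above microglia (1913 and 1577). Rps27, a zinc-finger small subunit protein, shared the neutrophil peak in its part of the module, at 3.71% and 3.64%. By that measure Rps27 was lowest in progenitors, at 1.04% and 0.761%. In T cells Rps27 stood above its mean over gates (log2 deviation 0.13 and 0.12), where Rps9 stood below (-0.62 and -0.67). Rps27a was also highest in neutrophils as a part of the module, at 3.20% and 4.53%. In CPM it had 1638 and 1763 there, below cDC1 (4019 and 4592).

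Large subunit proteins were at the other end in neutrophils. Rpl12, part of the stalk base where elongation factors bind, made 0.310% and 0.319% there and 1.15% and 1.26% in T cells. Rpl3, close to the peptidyl transferase centre, made 0.300% and 0.249% in neutrophils and 1.02% and 1.08% in progenitors. Rpl10a made 0.312% and 0.274% in neutrophils and 0.952% and 1.04% in progenitors. The SD of log2 deviations in neutrophils, 0.46 and 0.60, was larger than in any other compared gate, from 128 and 236 UMIs in the case of Rpl12.

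Rpl31, a protein beside the exit tunnel, marked pDC: 0.874% and 0.876% of the module, against 0.427% and 0.403% in progenitors and 0.291% and 0.283% in T cells. In CPM it was 2076 and 1969 in pDC and 886 and 778 in cDC2. Rps2, at the mRNA entry channel, was highest in progenitors, at 1.72% and 1.98%, and lowest in neutrophils, at 0.629% and 0.573%. Rpsa, the laminin receptor homolog of the small subunit, was also highest in progenitors, at 1.95% and 1.97%. The stalk proteins differed from each other: Rplp1 was highest in microglia, at 2.65% and 3.21%, where Rplp0 was lowest, at 1.08% and 1.14%.

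**Figure D4:**
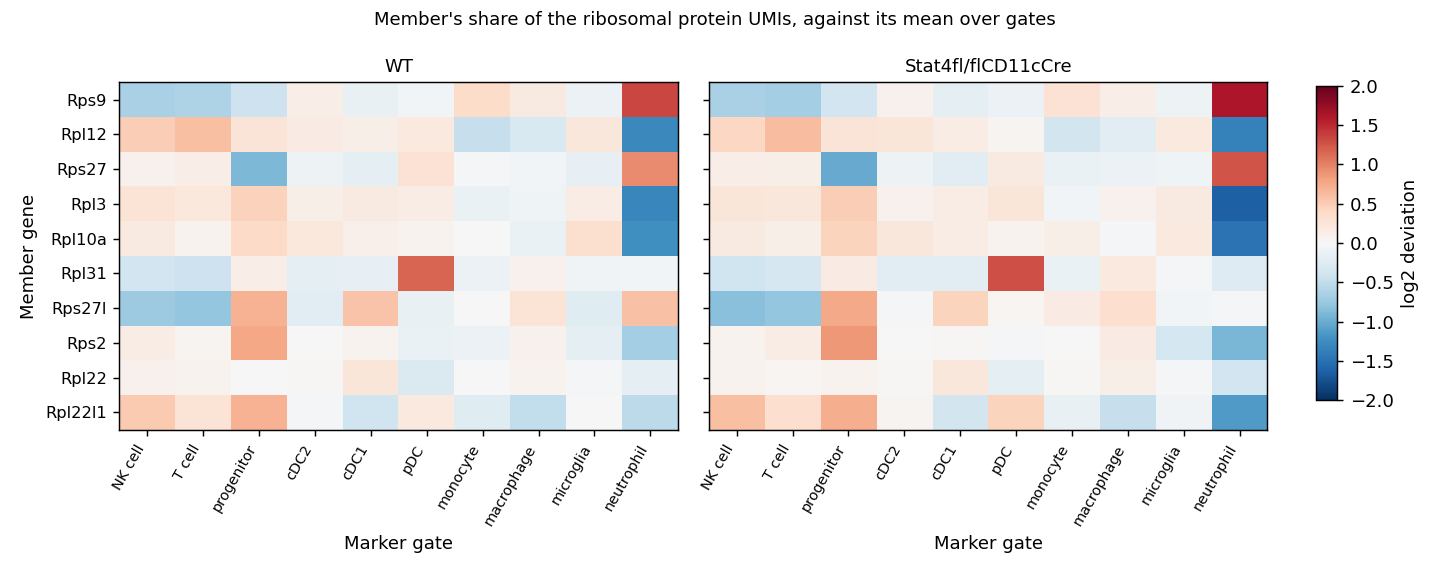
Log2 deviation of a member's share of ribosomal protein UMIs from its own mean over gates (colour), for the 8 most variable members and the Rpl22 pair (rows) by marker gate (columns) in each library. The 8 were ranked among the 80 members with 50 or more UMIs in every gate and library. Rps9 and Rps27 are high and Rpl12, Rpl3 and Rpl10a low in neutrophils, and Rpl31 is high in pDC, in both libraries.

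Paralogs were read by their own rows, and near-identical copies may exchange reads. Rpl22l1, the paralog of Rpl22, made 0.310% and 0.299% of the module in progenitors, 0.232% and 0.230% in T cells and 0.137% and 0.131% in macrophages. Rpl22 itself moved less, at 0.743% and 0.779% in progenitors and 0.773% and 0.767% in T cells. Over the compared gates Rpl22 ran from 0.601% (pDC) to 0.874% (cDC1) in WT. In Stat4fl/flCD11cCre it ran from 0.570% (neutrophils) to 0.873% (cDC1). Rps27l, the p53-responsive paralog of Rps27, was highest in progenitors, at 0.249% and 0.264%, and was at 0.0896% and 0.0911% in T cells, whereas Rps27 was lowest in progenitors.

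Rps27rt, a retrocopy of Rps27, had 94.2 and 105 CPM in T cells, where Rps27 had 5894 and 4523 CPM. Rpl3l, known from heart and skeletal muscle, had 16.1 and 19.0 CPM in neutrophils, from 13 and 36 UMIs. It had 9.98 and 6.42 CPM in macrophages, 9.11 and 5.26 CPM in monocytes, and 0.303 and 0.140 CPM in T cells. Rpl39l, known from testis, had 3.30 and 2.73 CPM in microglia, and Rpl10l had 1 and 4 UMIs in all kept barcodes. Rpl36a and Rpl36al, its near copy, were both lowest in neutrophils, at 0.281% and 0.216% for the former.

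Within microglia the share moved with MHC class II. Cells were thinned to 2500 UMIs, leaving out 298 and 217 shallower cells. Those with an H2-Aa UMI had a share of 11.4% in WT and 10.7% in Stat4fl/flCD11cCre, and those without had 8.87% and 7.59%. With 3 or more H2-Aa UMIs the shares were 12.2% and 12.8%, so the direction between libraries turned in these cells. Unthinned, the values were 11.4% and 10.4% with, and 8.68% and 7.29% without. H2-Aa was found in 67.3% of thinned WT microglia and 14.6% of those from Stat4fl/flCD11cCre.

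The microglia gates differed in other ways too. Proliferation genes were lower by 1.5-fold or more in Stat4fl/flCD11cCre in 12 of 15 cases, against 10.4% of all genes tested. Mki67 had 27.7 and 13.1 CPM. Summed monocyte markers were 335 and 172 CPM, summed T cell markers 11.8 and 5.76 CPM, and Ttr 787 and 234 CPM. Their part in the ribosomal protein difference was not tested. In 3 classes of depth the microglial share was lower in Stat4fl/flCD11cCre each time: 10.4% against 8.26%, 9.85% against 7.74% and 11.5% against 8.34%. In cDC2 the share was lower in the shallow class (26.6% against 21.4%, in 70 and 28 cells) and higher in the others (25.6% against 26.6%, and 24.8% against 25.4%). The direction also turned in the deep T cell class (26.6% against 26.8%) and in the middle classes of pDC and cDC1. Macrophages, higher when pooled, were lower in the shallow (16.4% against 15.3%) and middle (18.2% against 17.9%) classes. Monocytes were lower in the shallow class (18.9% against 18.5%).

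Neutrophils with 10 or more UMIs of the granule genes Ltf, Ngp and Camp had shares of 3.64% in WT (31 cells) and 2.55% in Stat4fl/flCD11cCre (65 cells). Those with fewer had 5.61% and 4.32%. These cells were not thinned, and the classes differ in depth. Median UMIs were 6022 and 6840 in the first class and 2976.5 and 3169 in the second. In the neutrophil gate, Ttr had 5018 and 19.0 CPM, summed monocyte markers 2271 and 1387 CPM, and summed proliferation genes 270 and 73.7 CPM; their part was not tested.

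**Figure D5:**
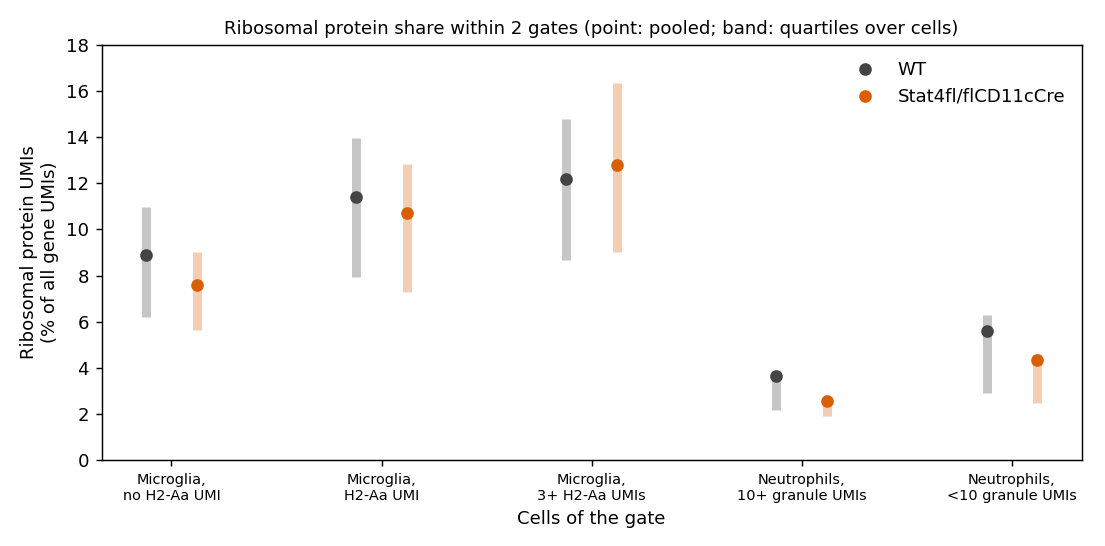
Percent of gene UMIs from ribosomal protein genes (y axis) in microglia by H2-Aa (cells thinned to 2500 UMIs) and in neutrophils by granule gene UMIs (x axis); points are pooled shares and bands quartiles over cells. Microglia with 3 or more H2-Aa UMIs lie at 12.2% in WT and 12.8% in Stat4fl/flCD11cCre.

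Other genes of translation were taken from lists. For comparison, 10.4% of all genes tested in microglia were lower and 6.96% higher by 1.5-fold. The median log2 ratio of all genes there was 0.09. Of 19 genes of elongation and 5′ TOP mRNAs, 0 were past 1.5-fold in microglia, with a median of -0.25; in neutrophils 3 were lower, near the 14.3% of all genes there, with a median of -0.42. Their medians in the other gates ran from -0.04 in NK cells to 0.12 in macrophages. Of 28 ribosome biogenesis genes, 0 were past 1.5-fold in microglia, with a median of -0.03, and of 13 tested regulators of ribosomal protein mRNA (Myc, mTOR and LARP1 among them) 0 were, with a median of 0.01. The 78 mitochondrial ribosomal protein genes, which serve a separate ribosome, had a median of 0.08 in microglia with 0 past 1.5-fold.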

How the data were processed

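The authors deposited raw UMI counts for each gene in each barcode. The file headers name Cell Ranger 7.0.0, and mm10 is named in the submitters' processing notes. No source used here says whether introns were counted or doublets removed. The matrices also hold 5 antibody tags, left out of gene totals. A barcode was kept at 500 genes and 1000 UMIs or above, if mitochondrial UMIs made less than 10%. Gates need 2 or 3 distinct markers with a UMI; no doublet caller was run, and barcodes in several gates were left out. UMIs were summed per gate and library. Shares carry exact Clopper-Pearson intervals and ratios exact conditional binomial intervals (95%, counting error only; scipy 1.17.1, numpy 2.4.6, Python 3.11.15). A gene was tested for size with 50 or more UMIs over both libraries, and called at 1.5-fold. On simulated data, 95.5% of genes changed 1.5-fold in microglia and 69.9% in cDC2 were recovered with their direction. Recovery was scored by direction, so these percentages are not the sensitivity of the 1.5-fold call. Variation between cells or between libraries is not covered by them.

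Named genes were a set list of paralogs and stalk proteins, the 6 members with most UMIs, the 8 most variable across gates and, per gate, the 3 highest and 3 lowest by ratio; of the last, only those the text needs are printed, and others are named because a count of them is given. Some items are not reported here. Members, gates and lists were chosen with earlier results of these data known. Lengths came from GENCODE basic annotation. Spliced length (limit 500 bases) was tried first and coding length (limit 300 bases) second; both were chosen after seeing the data, the second after seeing the first, and both are reported. Alternatives were the cell filter, gate strictness, depth, the UMI total, pooling and shared barcodes.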

Additional observations from a re-analysis of the deposited data

Results flagged for a closer look

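The ribosomal protein share differed between the 2 libraries, with a counting interval that excludes 0, in 9 of 10 gates. With 1 library per genotype the difference was not tested. The log2 ratios, Stat4fl/flCD11cCre over WT, were -0.41 in microglia, -0.39 in neutrophils, -0.16 in NK cells, -0.0805 in pDC, -0.0631 in progenitors, -0.0347 in T cells, -0.0239 in cDC2, 0.0188 in macrophages and 0.0379 in monocytes.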

How the results depend on the processing

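No paired analysis was possible because each genotype has 1 library. The microglial log2 ratio of -0.41 was -0.41 with the stricter cell filter (-0.4087), -0.43 without the deepest 10% of barcodes (-0.4286) and at 2500 to 10000 UMIs (-0.4295), -0.42 without mitochondrial genes, -0.40 without the 20 most abundant other genes (-0.4035), -0.40 as a median over cells (-0.3976) and -0.41 with barcodes in several gates resolved (-0.4057). The cDC2 ratio of -0.02 was -0.04 with 1 more marker (-0.0385), without the deepest barcodes (-0.0413) and at 2500 to 10000 UMIs (-0.0361), -0.02 without the 20 most abundant other genes (-0.0157) and -0.06 as a median over cells (-0.0629). Resolving barcodes in several gates and both length limits were chosen after seeing the data, coding length after the result with spliced length. Without the members under 500 spliced bases, 5 gates were lower in place of 8, and microglia stood at -0.38 (-0.3784). The sign turned in cDC2 (0.0191), T cells (0.0075) and cDC1 (0.0424). Members without a spliced length, Rpl41 and Rps24 among them, were kept in. Limited to coding lengths of 300 bases or more, 5 were lower, among them pDC with an interval that spans 0 (-0.0233 to 0.0015). Microglia stood at -0.35, and the sign turned in cDC2 (0.0341), T cells (0.0226) and cDC1 (0.0503). The cause was not tested. The count of lower gates was 7 or 8 of 10 under the other alternatives, except 6 of the 8 gates left at 2500 to 10000 UMIs, and the 14 microglial members were 12 to 17.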
